A study of Mus musculus with 2 samples.

Results

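Genes of 9 secreted signalling proteins, the chemokines Cxcl1, Cxcl9, Cxcl10, Cxcl12, Cxcl14, Ccl2, Ccl5 and Ccl7 and the cytokine Il6, were followed in cultured embryonic mouse ureters. They were taken by gene name from the array design, which holds 12 probes for them among 39429 probes and 30011 genes or unnamed features. The set was picked on measured values, because Cxcl10, Cxcl9 and Ccl7 differed most between the 2 arrays of the study. The differences between arrays and between samples given here are therefore a description of these 9 genes, with no test.

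The samples labelled NOGGIN were ureters of NMRI wild-type embryos of both sexes at E13.75, kept on transwell membranes for 18 h with 10 µg/ml NOGGIN, a secreted antagonist that binds bone morphogenetic proteins (BMPs). The samples labelled control were the same kind of ureters in medium without NOGGIN. There were 2 samples per condition, labelled NOGGIN 1, control 1, NOGGIN 2 and control 2, from each of which 200 ng of total RNA was labelled, and each array carried 1 NOGGIN and 1 control sample. The labels do not say whether the pairs came from separate litters or how many ureters made a sample. On array 1 NOGGIN was in the green dye and control in the red dye, and on array 2 the dyes were exchanged.

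The sources do not settle which way the ratios run. By the dye labels Id1, a transcriptional regulator that BMP signalling induces, was higher in the samples labelled NOGGIN, with log2 ratios of 2.21 and 2.08 on the 2 arrays. The authors' deposited table gives Id1 signed fold changes of -4.65 and -4.53 under titles that set NOGGIN against control, so the signs here oppose that table. Every value and sample name here follows the dye labels. If the labels were exchanged on both arrays, every sign would turn while the sizes stayed. The sample names would turn as well, so that the sample called NOGGIN 2 here would be control 2. Whether they were exchanged was not tested.

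Chemokines are small secreted proteins that steer cell migration through G protein-coupled receptors. CXCL9 and CXCL10 bind CXCR3, which is carried by activated T cells and natural killer cells, and both genes are known targets of interferon signalling. CXCL1 binds CXCR2 and draws neutrophils, CCL2 and CCL7 bind CCR2 and draw monocytes, and CCL5 draws T cells and monocytes. CXCL12 and CXCL14 are made in many resting tissues, and IL6 is an inflammatory cytokine that signals through its own receptor chain and the shared subunit encoded by Il6st.

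The upstream sequences of 4 genes that were high in NOGGIN 2, and of Cxcl14, which was not, are shown so that the letters of known inducible elements can be compared. The sequences are those of RefSeq on GRCm38.p6, the 250 bases before the annotated start, 5′ to 3′ on the strand of the gene. Of the 9 genes, 6 were matched in the promoter table, and Ccl2, Ccl5 and Ccl7 are named only. Capitals mark matches on either strand to 4 motifs. These are an interferon-stimulated response element (ISRE) core, GAAANNGAA, a gamma-activated site (GAS) core, TTCNNNGAA, the NF-kappaB site, and a TATA box, TATAAA.
Cxcl10: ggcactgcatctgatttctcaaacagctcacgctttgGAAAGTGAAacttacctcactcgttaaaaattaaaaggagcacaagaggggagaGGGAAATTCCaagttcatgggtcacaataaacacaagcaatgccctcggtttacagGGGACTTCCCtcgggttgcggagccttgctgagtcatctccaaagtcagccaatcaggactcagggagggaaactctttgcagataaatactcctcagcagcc
Cxcl9: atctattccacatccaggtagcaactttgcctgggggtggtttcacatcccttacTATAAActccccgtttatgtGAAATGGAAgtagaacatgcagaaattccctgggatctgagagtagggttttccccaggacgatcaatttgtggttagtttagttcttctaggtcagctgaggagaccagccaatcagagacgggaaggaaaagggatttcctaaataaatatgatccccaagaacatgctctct
Cxcl1: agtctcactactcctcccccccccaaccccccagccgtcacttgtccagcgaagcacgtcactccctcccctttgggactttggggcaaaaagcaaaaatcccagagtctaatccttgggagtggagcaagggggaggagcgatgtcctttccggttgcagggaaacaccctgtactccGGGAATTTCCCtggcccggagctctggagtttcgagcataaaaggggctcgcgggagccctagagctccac
Il6: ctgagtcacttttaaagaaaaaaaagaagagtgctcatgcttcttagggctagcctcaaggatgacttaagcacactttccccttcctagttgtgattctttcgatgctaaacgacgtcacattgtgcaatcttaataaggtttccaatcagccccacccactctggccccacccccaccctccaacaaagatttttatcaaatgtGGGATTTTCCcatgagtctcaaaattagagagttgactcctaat
Cxcl14: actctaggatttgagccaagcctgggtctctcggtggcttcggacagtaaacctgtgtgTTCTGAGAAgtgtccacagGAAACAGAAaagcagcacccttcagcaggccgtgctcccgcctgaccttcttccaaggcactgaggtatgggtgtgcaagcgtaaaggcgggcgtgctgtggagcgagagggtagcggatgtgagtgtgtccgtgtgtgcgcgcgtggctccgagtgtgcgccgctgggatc

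The Cxcl10 window, chr5:92348890-92349139 on the minus strand, held an ISRE core at positions -213 to -205 from the start and NF-kappaB sites at -159 to -150 and at -103 to -94. Cxcl9 (chr5:92328080-92328329, minus strand) held an ISRE core at -175 to -167 and TATAAA letters at -195 to -190. In Cxcl1 (chr5:90890995-90891244, plus strand) 2 NF-kappaB matches on opposite strands overlapped between -71 and -61, and in Il6 (chr5:30012864-30013113, plus strand) 1 lay at -44 to -35. Cxcl14 (chr13:56296552-56296801, minus strand) held an ISRE core at -172 to -164 and a GAS core at -191 to -183, so such letters were not limited to the genes that were high in NOGGIN 2. The Cxcl12 window (chr6:117168285-117168534, plus strand) held none of the 4 motifs. Of 32851 promoter windows of this length, 7.13% held the ISRE core, 7.02% the GAS core, 3.9% the NF-kappaB site and 12.4% the TATA box. A match here is a run of letters and was not tested as a bound site.

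The main pattern was a high level in 1 of the 4 samples. By the probe used for each gene, Cxcl10, Cxcl9, Cxcl1, Ccl2, Ccl7, Ccl5 and Il6 were all highest in NOGGIN 2. Next highest was control 2, with NOGGIN 1 and control 1 below both. That order was seen in 7 of these 9 genes and in 6.62% of 22316 genes kept on both arrays, and since the genes were picked on this difference the share is given only as background. With NOGGIN 2 at the top and NOGGIN 1 at or near the bottom, the conditions overlapped in each of the 7. Cxcl12 and Cxcl14 did not have this order. Levels below are normalised fluorescence in arbitrary units, averaged over up to 4 spots of a probe, and levels of different probes cannot be set against each other. In whole explants, more cells of a type and more RNA per cell cannot be told apart.

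Among the CXCR3 ligands, Cxcl10 (probe at chr5:92775781-92775840, mm9, minus strand) read 648 units in NOGGIN 1 and 635 in control 1, and 52900 in NOGGIN 2 and 766 in control 2. Its log2 ratio of NOGGIN over control was 0.03 ± 0.18 on array 1 and 6.11 ± 0.17 on array 2 (SD over spots, here and for the other genes), which is 69.0-fold on array 2. No gene among 22316 had a higher ratio on array 2 or a larger difference between the arrays. The other 3 samples lay close together, so NOGGIN 2 alone was high. Before normalisation the spots averaged 44700 in NOGGIN 2 and 1070 in control 2 over local backgrounds of 66.5 and 27.5.

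Cxcl9 (chr5:92752796-92752855, mm9, minus strand) read 95.0 units in NOGGIN 1, 93.0 in control 1, 2070 in NOGGIN 2 and 176 in control 2, from 3 usable spots. In control 1 it was not well above background, so no fold is given for array 1, where the measured log2 ratio was 0.03 ± 0.08. On array 2 the log2 ratio was 3.55 ± 0.05, an 11.7-fold higher level in NOGGIN 2. Its difference between the arrays ranked 10 of 22316.

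Both of these genes had a second probe. The second Cxcl9 probe (chr5:92752191-92752250) gave 1580 units in NOGGIN 2 and 135 in control 2, a log2 ratio of 3.55 ± 0.18, and was not well above background on array 1. For Cxcl10 the second probe, designed on the transcript AK156907 (chr5:92776616-92776675), gave 510 units in NOGGIN 2 and 74.3 in control 2. Its log2 ratio on array 2 was 2.78 ± 0.14 (6.86-fold). On array 1 it read 69.2 units in NOGGIN 1 and 83.1 in control 1, both not well above background. With that dim control 1 reading above control 2, the second Cxcl10 probe did not have the order of samples given above. The Cxcl9 probes gave the same ratio on array 2, whereas the Cxcl10 probes had the same direction and differed in size by more than their spot error.

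Cxcl1 (chr5:91321845-91321904, mm9, plus strand), the ligand of CXCR2, read 129 units in NOGGIN 1 and 139 in control 1, and 1250 in NOGGIN 2 and 182 in control 2. The log2 ratio was -0.11 ± 0.16 on array 1 and 2.78 ± 0.20 on array 2 (6.86-fold). NOGGIN 2 was again alone, with the other 3 samples between 129 and 182.

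The CC chemokines had a wider spread among the 3 lower samples. Ccl2 (chr11:81850650-81850709, mm9, plus strand) was already bright, with 2580 units in NOGGIN 1 and 3810 in control 1, and 38200 in NOGGIN 2 and 6770 in control 2. Its log2 ratio was -0.56 ± 0.24 on array 1 and 2.50 ± 0.18 on array 2 (5.65-fold). Ccl2 therefore had opposite signs on the 2 arrays, although with median centring in place of loess the array 1 value was -0.17, within the spot error.

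Ccl7 (chr11:81860656-81860715, mm9, plus strand), a near neighbour of Ccl2 on the chromosome that shares its receptor, read 201 units in NOGGIN 1 and 465 in control 1, and 5270 in NOGGIN 2 and 904 in control 2. The log2 ratio was -1.21 ± 0.20 on array 1, a 2.32-fold lower level in NOGGIN 1, and 2.54 ± 0.31 on array 2, a 5.83-fold higher level in NOGGIN 2. As processed here, it was the 1 of the 9 genes that passed 1.5-fold in opposite directions, lower on array 1 and higher on array 2, as did 0.188% of all genes kept on both arrays (42 of 22316). Its difference between the arrays ranked 7.

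Ccl5 (chr11:83339296-83339355, mm9, minus strand), a chemokine of T cells, monocytes and eosinophils, read 151 units in NOGGIN 1 and 161 in control 1, and 3120 in NOGGIN 2 and 386 in control 2. The log2 ratios were -0.10 ± 0.07 on array 1 and 3.02 ± 0.26 on array 2 (8.09-fold). Of the 9 genes Ccl5 had the highest level in control 2 relative to control 1, at 2.40-fold, with different dyes in those samples.

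Il6 (chr5:30346367-30346426, mm9, plus strand) was the lowest in size of the 7. It read 90.0 units in NOGGIN 1 and 130 in control 1, and 629 in NOGGIN 2 and 207 in control 2. Its log2 ratio was -0.53 ± 0.12 on array 1 and 1.61 ± 0.37 on array 2 (3.04-fold). The difference between the arrays ranked 72. Under 6 of 11 other settings Il6 was also past 1.5-fold lower on array 1, at -1.96 to -0.60.

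The 2 chemokines of resting tissue were the exceptions. Cxcl12 (chr6:117131227-117131286, mm9, plus strand), the ligand of CXCR4 and of the scavenging receptor ACKR3, read 100000 units in NOGGIN 1, 70100 in control 1, 74900 in NOGGIN 2 and 82000 in control 2, with log2 ratios of 0.52 ± 0.15 and -0.13 ± 0.17. Its second probe, on another part of the gene (chr6:117125026-117125085), gave log2 ratios of 0.27 ± 0.10 and 0.08 ± 0.01. Cxcl14 (chr13:56390078-56390137, mm9, minus strand) read 2650 units in NOGGIN 1, 2010 in control 1, 1810 in NOGGIN 2 and 2590 in control 2, with log2 ratios of 0.40 ± 0.33 and -0.52 ± 0.36. For both genes the samples of the 2 conditions overlapped and no ratio of the chosen probe reached 1.5-fold as processed here. With median centring in place of loess, Cxcl14 was past it in opposite directions, at 0.80 on array 1 and -0.96 on array 2.

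**Figure D1:**
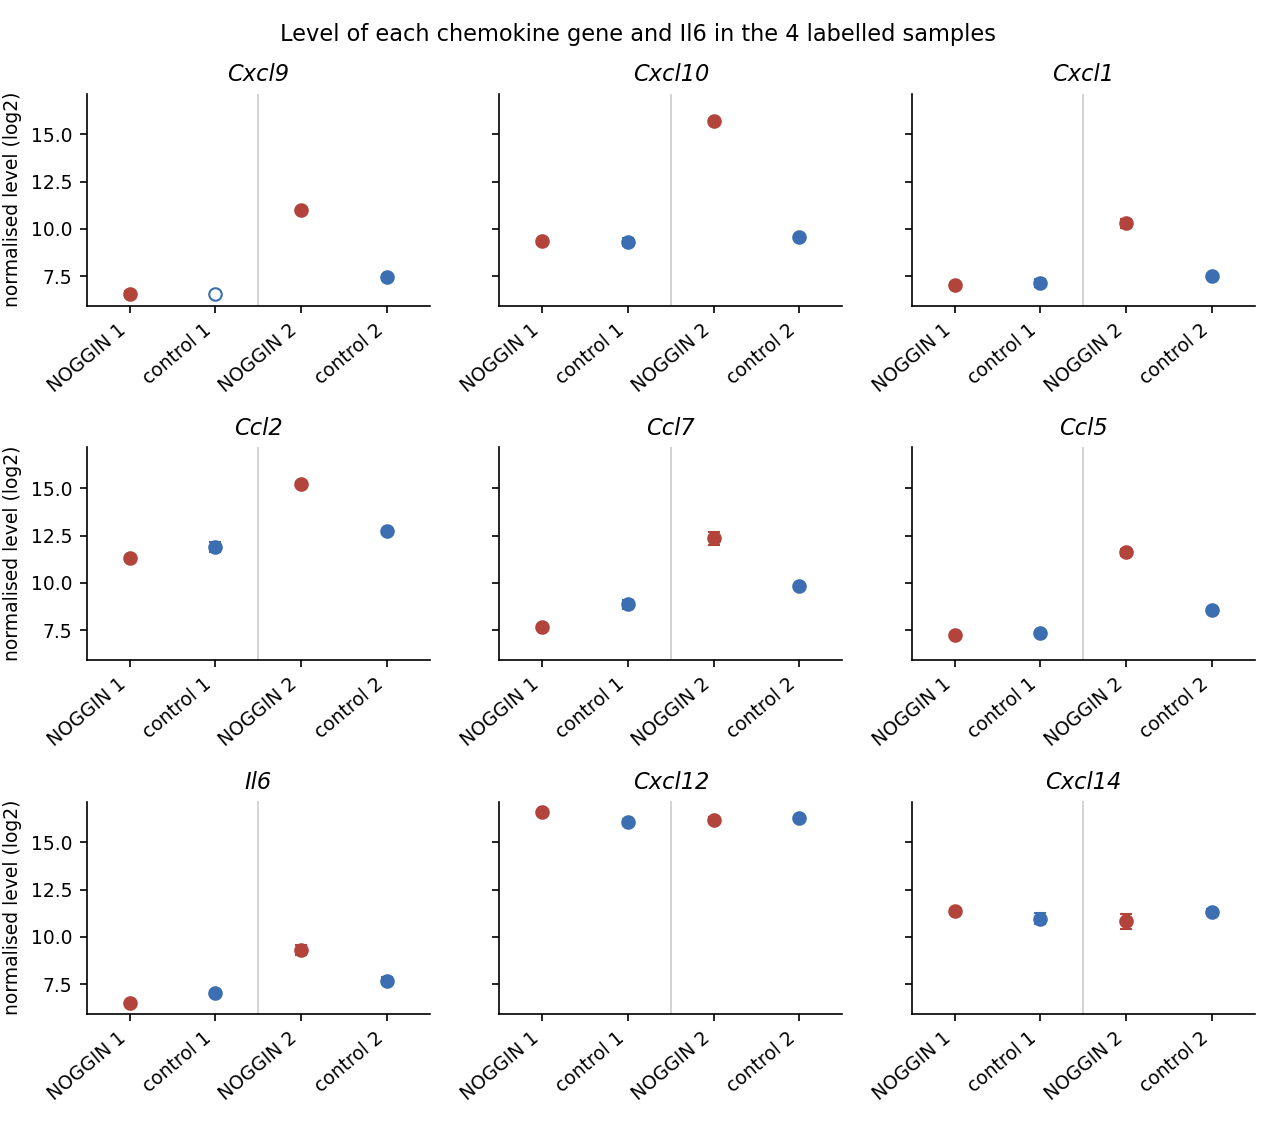
Normalised level (log2 scale) of each gene in the samples NOGGIN 1, control 1, NOGGIN 2 and control 2. Points are means over spots of 1 probe, bars are the SD over spots, red is NOGGIN, blue is control, and the open point was not well above background. Cxcl10 read 52900 units in NOGGIN 2 against 766 in control 2, whereas Cxcl12 read 74900 in NOGGIN 2 against 82000 in control 2.

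By a threshold of 1.5-fold, 7 of the 9 genes were higher in NOGGIN 2 than in control 2 on array 2, where 6.17% of 22727 genes were, and 0 were lower, where 5.61% of all genes were. With median centring or spot medians Cxcl14 was also lower (-0.96 and -0.63). On array 1, 0 of 9 were higher in NOGGIN 1 (2.16% of 22791 genes) and 1, Ccl7, was lower (2.06%). No gene of the 9 was past 1.5-fold with 1 sign on both arrays, whereas 0.941% of all genes were higher in this way and 1.25% lower. Over the 2 arrays the mean log2 ratio was 3.07 ± 4.30 for Cxcl10, 1.79 ± 2.49 for Cxcl9 and 0.67 ± 2.66 for Ccl7 (SD, n = 2). The set was picked on the difference between arrays, so nothing is read from these SDs or from the sizes of the differences given next. Across all genes the median absolute difference between the 2 log2 ratios was 0.26 and the 99th percentile was 1.45, while the 7 inducible genes differed by 2.14 to 6.08.

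**Figure D2:**
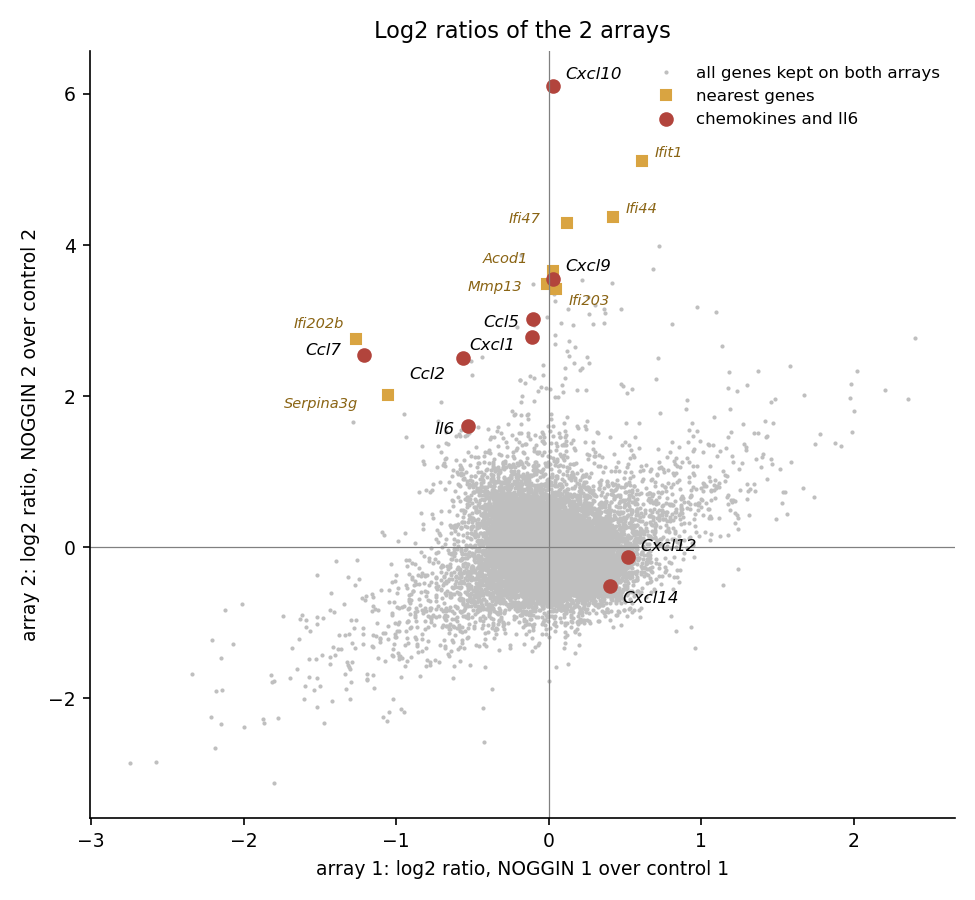
Log2 ratio of NOGGIN over control on array 1 (x axis) and array 2 (y axis) for 22316 genes (grey), the 9 genes (red circles) and the genes nearest to Cxcl10, Cxcl9 and Ccl7 in this plane (yellow squares). The 7 inducible genes lie high on the y axis, from 1.61 for Il6 to 6.11 for Cxcl10, at array 1 values between -1.21 and 0.03.

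The signal of a probe can be stronger in 1 dye than in the other, so the samples were also compared within a dye, across the arrays. In red, NOGGIN 2 was at least 1.5-fold above control 1 for the same 7 genes, against 4.75% of 19972 genes. The red ratio was 83.3-fold for Cxcl10, 19.4-fold for Ccl5, 11.3-fold for Ccl7, 10.0-fold for Ccl2, 8.98-fold for Cxcl1 and 4.83-fold for Il6. For Cxcl9 it was at least 19.8-fold, a bound taken because control 1 was not well above background. These red ratios, set against control 1, were larger than those of array 2, set against control 2, in all 7 genes.

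In green, NOGGIN 1 was at least 1.5-fold below control 2 for 5 of the 9 genes, against 3.30% of 23185 genes. The level in NOGGIN 1 was lower by 4.50-fold for Ccl7, 2.63-fold for Ccl2, 2.56-fold for Ccl5, 2.30-fold for Il6 and 1.86-fold for Cxcl9. Cxcl1 was 1.41-fold and Cxcl10 1.18-fold lower. Within a dye the samples labelled NOGGIN therefore lay above control in red and below control in green for 7 of the 9 genes. In both dyes the array 2 sample was the higher one. Cxcl12 had log2 ratios of 0.10 in red and 0.29 in green, and Cxcl14 of -0.15 and 0.03.

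**Figure D3:**
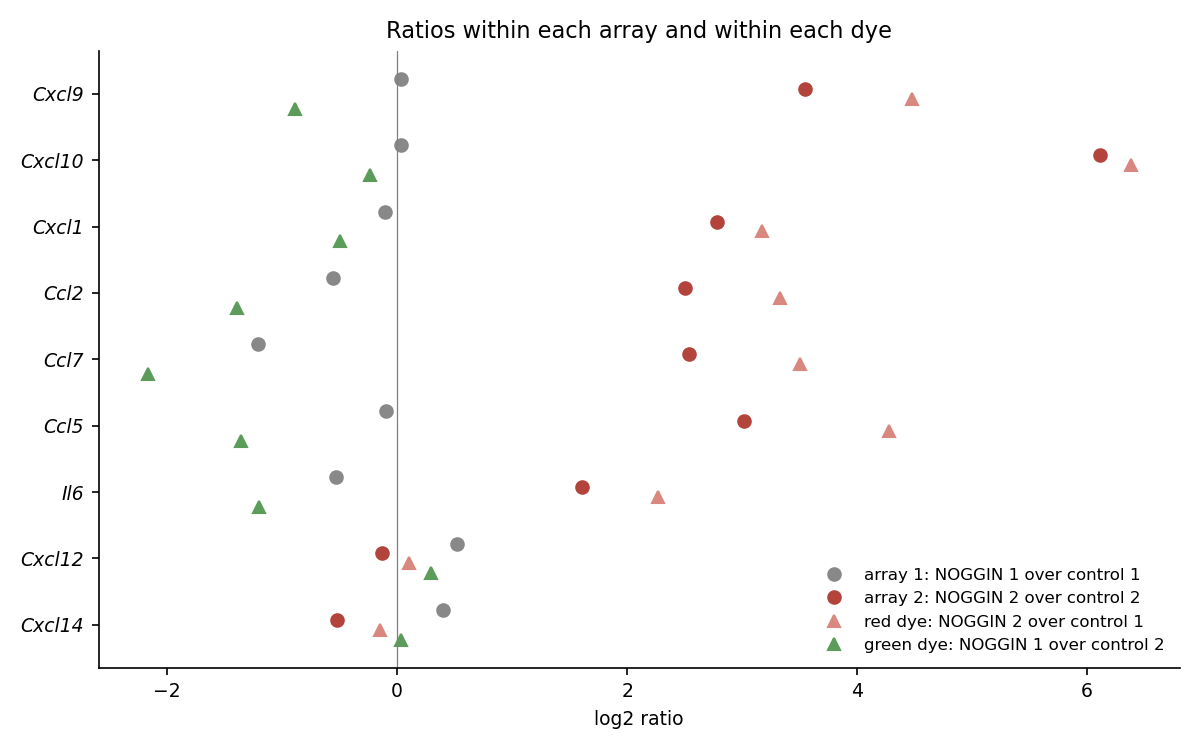
Log2 ratio of each gene within array 1, within array 2, within the red dye (NOGGIN 2 over control 1) and within the green dye (NOGGIN 1 over control 2). Cxcl10 stands at 6.11 on array 2 and 6.38 in red, but at 0.03 on array 1 and -0.24 in green. The red value of Cxcl9 is its measured 4.48, for which the text gives the bound.

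The genes nearest to 3 of the members in the plane of both ratios were taken by Euclidean distance over the 2 arrays. Nearest to Cxcl10 were Ifit1 (log2 ratios 0.61 and 5.11), Ifi44 (0.42 and 4.37) and Ifi47 (0.12 and 4.29), which are known interferon-induced genes. Cxcl9 had as neighbours Mmp13, a collagenase (-0.01 and 3.48), Acod1, the enzyme that makes itaconate in activated macrophages (0.03 and 3.65), and the interferon-induced Ifi203 (0.05 and 3.42). Those of Ccl7 were Ifi202b (-1.26 and 2.76), Serpina3g (-1.05 and 2.01) and Ccl2 itself. In control 1 Ifi44, Mmp13 and Acod1, like Cxcl9, were not well above background, so their array 1 values are readings at the limit. Ifi203 and Ifi202b belong to a family of closely related copies that a probe may not tell apart. With 2 points per gene, a small distance is a description of these arrays.

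The other chemokine genes were mixed. Among the remaining CXC, CX3C and XC chemokines, 11 of 12 were well above background in at least 1 sample. On array 2, 3 were at least 1.5-fold higher in NOGGIN 2 and 1 was lower, beside 6.17% and 5.61% of all genes. Cxcl3 and Cxcl5, further ligands of CXCR2, had log2 ratios of -0.44 and 0.09 on array 1 and 2.51 and 2.14 on array 2. Cxcl2, named after its value was seen, was too dim for a ratio on array 1 and had 3.45 on array 2. The probe of Cxcl11, the other ligand of CXCR3, read between 88100 and 95000 units in all 4 samples. Cxcl11 was likewise named after its value was seen. Whether so bright a signal came from Cxcl11 RNA was not tested, so no level of this gene is read from it. Ppbp, a platelet chemokine, was at least 1.5-fold lower on both arrays (-0.92 and -0.98), beside 1.25% of all genes. Over the 9 genes of the list kept on both arrays, the median log2 ratios were -0.15 (array 1) and 0.05 (array 2). Over all genes they were 0.024 and -0.05.

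Of 18 other CC chemokines, 13 were above background. On array 2, 7 were at least 1.5-fold higher in NOGGIN 2 and 0 were lower, beside 6.17% and 5.61% of all genes. Ccl3, an inflammatory chemokine of macrophages, read 705 units in NOGGIN 1 and 804 in control 1, and 6340 in NOGGIN 2 and 1360 in control 2. Ccl12, a monocyte chemokine of the mouse, had log2 ratios of -0.16 and 2.17. Ccl25 lay at the low end of the list (0.10 and -0.34). List medians were 0.02 (array 1) and 0.67 (array 2) over the 11 genes kept on both arrays. Across both lists of chemokines no gene passed 1.5-fold upward on both arrays, beside 0.941% of all genes.

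Of 23 chemokine receptor genes 18 were above background, of which 1, Ccrl2, was at least 1.5-fold higher in NOGGIN 2 (0.70), with Ccr4 next at 0.44, and 5 were lower, beside 6.17% and 5.61% of all genes. Cxcr3, the receptor of CXCL9 and CXCL10, was dim, at 102 units in NOGGIN 1 and 93.7 in control 1, and 84.2 in NOGGIN 2 and 113 in control 2. Ccr2, the receptor of CCL2 and CCL7, was also dim, with measured log2 ratios of 0.05 and -0.49. Both receptors were not well above background in control 1 and NOGGIN 2, the red samples, so neither receptor has a measured change on array 1 or 2. Cxcr2 was below background in all 4 samples. Cxcr4, the CXCL12 receptor, had 0.35 and 0.33, and Ackr3 had -0.25 and 0.19. Ccr6 (-1.31 and -2.01) and Cxcr6 were at least 1.5-fold lower on both arrays, beside 1.25% of all genes. For Cxcr6 the log2 ratio was -0.97 on array 1, and on array 2, where NOGGIN 2 was not well above background, the level was at least 4.1-fold lower.

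All 20 listed genes of the IL6 family and its signalling were above background, and on array 2 0 were at least 1.5-fold higher in NOGGIN 2 and 4 were lower, beside 6.17% and 5.61% of all genes. On both arrays 2 genes were lower, Il11 and Osmr, beside 1.25% of all genes. Il11, a cytokine of the IL6 family, read 196 units in NOGGIN 1 and 375 in control 1, and 182 in NOGGIN 2 and 543 in control 2. Osmr, the oncostatin M receptor, had log2 ratios of -1.41 and -0.86. The transcription factor genes Cebpd (-0.00 and 0.58) and Junb (-0.16 and 0.45) were the highest on array 2. The list's medians were -0.23 and -0.15.

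Inflammatory genes of the NF-kappaB response followed the chemokines in part. Of 21 genes, 11 were at least 1.5-fold higher in NOGGIN 2 on array 2 and 1 was lower, beside 6.17% and 5.61% of all genes. The list medians were -0.05 (array 1) and 0.58 (array 2) over the 17 genes kept on both arrays, leaving out those too dim on array 1. Saa3, an acute-phase protein gene, read 113 units in NOGGIN 1 and 110 in control 1, and 7390 in NOGGIN 2 and 769 in control 2, with control 1 not well above background. Tnf, the cytokine, had log2 ratios of -0.14 and 1.75. Ptgs2, the inducible cyclooxygenase, was instead lower on both arrays (-2.21 and -1.22), and Traf1 was higher on both (1.07 and 0.63). Of all genes, 1.25% were at least 1.5-fold lower and 0.941% higher on both arrays.

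Interferon-induced effectors were the list that moved most broadly on array 2. All 25 were above background and 24 were at least 1.5-fold higher in NOGGIN 2, with a list median of 2.59, where 6.17% of all genes were. Ciita, the regulator of MHC class II genes, was the exception (0.15 and -0.40). On array 1 the list median was 0.16 and 4 genes were at least 1.5-fold higher, beside 2.16% of all genes. These were Ifit1, Ifit3, Oasl2 and Rsad2, which were also higher on array 2. Gbp3, a guanylate-binding protein, read 1290 units in NOGGIN 1 and 1470 in control 1, and 24400 in NOGGIN 2 and 1660 in control 2.

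Upstream of these, 14 of 15 interferon ligands, receptors and factors were above background. At least 1.5-fold higher on array 2 were 3 of them, beside 6.17% of all genes. These included Irf7, an interferon regulatory factor (at least 1.2-fold higher on array 1, where control 1 was not well above background, and a log2 ratio of 3.09 on array 2), and Irf9, part of the complex that binds the ISRE (-0.15 and 1.13). Irf3 was the lowest of the list (0.32 and -0.42). The third was Ifnb1, a type I interferon ligand, with a bound of 1.62-fold higher in NOGGIN 2, where control 2 was not well above background. Its level of 115 units in NOGGIN 2 was itself near the lowest level well above background in that channel. On array 2 this lowest level was log2 6.7 in red and 6.14 in green, so the bound is not a resolved change. Ifnb1 was too dim for a ratio on array 1. Ifng was below background in all samples. Of 14 sensors of RNA, DNA and microbes, 3 were higher on array 2, beside 6.17% of all genes. Ifih1 had -0.51 and 2.46, Dhx58 had 1.48 on array 2, and Tmem173 was lowest at -0.06 and -0.37. In limma's moderated fit 0 of the 22316 genes, and so 0 genes of these lists, had an adjusted p under 0.05, and 1347 had an unadjusted p under 0.05.

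**Figure D4:**
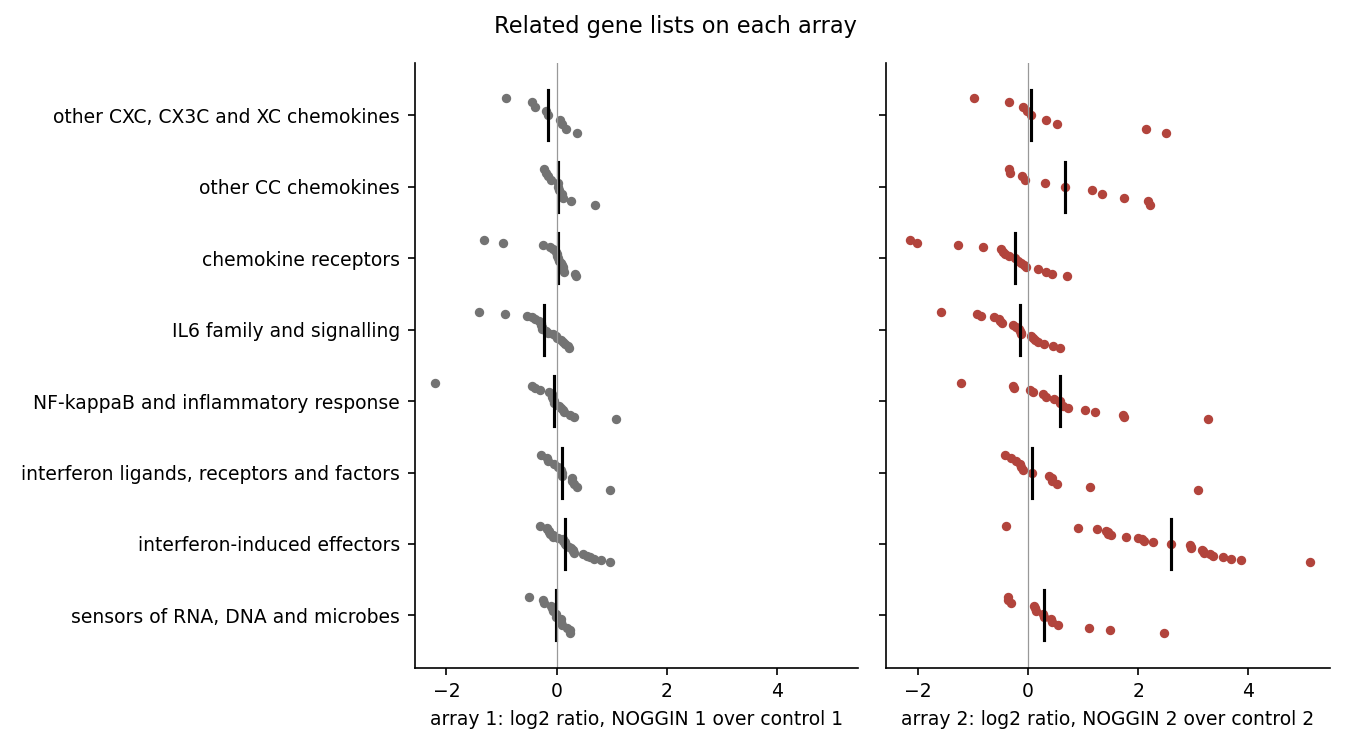
Log2 ratio of NOGGIN over control for every gene of the 8 related lists that was kept on both arrays, on array 1 (left) and array 2 (right). Each point is a gene and each black line the median of its list. The median of the interferon-induced effectors is 0.16 on array 1 and 2.59 on array 2, and that of the chemokine receptors is 0.02 and -0.24.

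Chemokines can come from blood cells as well as from tissue, so markers of other cell types are given beside them. The 11 detected of 12 macrophage markers summed to 18338 units in NOGGIN 1 and 19444 in control 1, and to 26569 in NOGGIN 2 and 26377 in control 2. Bright probes decide such a sum, and single markers went apart on array 2. Adgre1 had a log2 ratio of 1.27 and Lyz2 of 1.23, against -1.27 for Cx3cr1, -0.63 for Mrc1, -0.45 for Csf1r and 0.31 for Ptprc. For neutrophils, 6 of 6 markers were detected and summed to 3029 units in NOGGIN 1 and 3482 in control 1, and to 8443 in NOGGIN 2 and 3977 in control 2. Most of that sum was Elane, at 6940 units in NOGGIN 2 and 3020 in control 2.

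Markers of T and natural killer cells were detected in 4 of 9 cases, with Cd3d, Cd3g, Cd8a, Klrb1c and Ncr1 below background in all samples and Cd3e at log2 ratios of -0.06 and -0.19. Their sum was 3031 units in NOGGIN 1 and 3643 in control 1, and 5139 in NOGGIN 2 and 3575 in control 2. Of the sums on array 2, Cd4 made up 4380 units in NOGGIN 2 and 2700 in control 2, while Nkg7 had a log2 ratio of -0.10 there. For B cells 3 of 4 markers were detected, with sums of 695, 618, 741 and 763 units in NOGGIN 1, control 1, NOGGIN 2 and control 2, and for mast cells 2 of 4, with sums of 513, 485, 495 and 458. The endothelial sum was 56695 units in NOGGIN 1 and 45860 in control 1, and 59724 in NOGGIN 2 and 54563 in control 2, with 6 of 6 markers. Red blood cell markers summed to between 171551 and 185981 units. The part of any of these cells in the chemokine levels was not tested.

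Markers of the ureter tissues were detected. Tbx18 of the ureteric mesenchyme had log2 ratios of 0.88 and 0.65, Acta2 of smooth muscle -1.39 and -0.18, and Upk3a of the urothelium 0.25 and -0.10. All 5 mesenchymal, 5 muscle and 8 urothelial markers were above background. On both arrays 2 mesenchymal markers were at least 1.5-fold higher and 1 was lower, while 1 muscle marker was higher and 2 were lower. Of the urothelial markers 0 passed in either direction, beside 0.941% higher and 1.25% lower of all genes. A single marker therefore does not stand for its list. More probes were detected in green than in red, at 76.9% of probes in NOGGIN 1 and 65.3% in control 1, and 66.4% in NOGGIN 2 and 76.4% in control 2. The arrays shared 1 slide and 1 scan. The labels do not say whether they differ by culture, litter or handling, and this was not tested.

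The authors' deposited table had the opposite sign throughout for the genes past 1.5-fold, with somewhat different sizes. In that table Cxcl10 had signed fold changes of -1.04 on array 1 and -65.38 on array 2, and its second probe 1.0 and -8.91. The authors' deposited table listed Ccl7 at 3.09 and -6.03, again in opposite directions on the 2 arrays, and Il6 at 1.59 and -4.22. Cxcl9 stood in the authors' deposited table at 1.0 and -16.52, and Ccl5 at 1.26 and -8.56. For Cxcl12 the authors' deposited table gave -1.37 and -1.0, and for Cxcl14 -1.35 and 1.48.

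**Figure D5:**
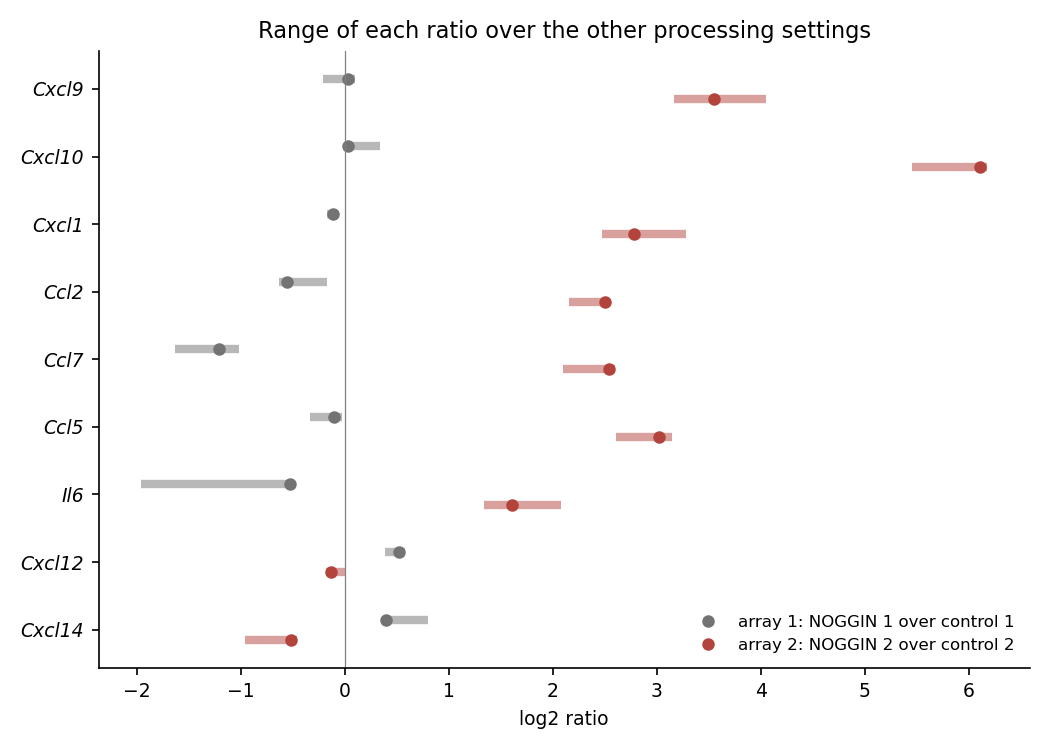
Log2 ratio of each gene on array 1 (grey) and array 2 (red) as reported (points) and its lowest and highest value over 11 other processing settings (bars). On array 2 Cxcl10 ranged from 5.45 to 6.18 and Il6 from 1.34 to 2.08, and on array 1 Il6 ranged from -1.96 to -0.53.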

How the data were processed

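RNA of NOGGIN-treated and control ureters was measured on 2 dye-swapped two-colour arrays. Per the submitters' processing notes, arrays were read out with Agilent Feature Extraction 10.7.3.1. The deposited intensity values of each spot are not normalised, per the file headers, and stand together with processed signals and a log10 ratio of red over green. The authors also deposited a signed score per probe. Against the scanner values it behaved as a signed linear fold, with medians of 1, no value between -1 and 1, and correlations with the log2 ratio of NOGGIN over control of -0.891 and -0.943. How it was normalised is not stated in the labels.

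Here mean signals underwent normexp background correction (offset 50) and within-array loess, fitted without control spots, in limma 3.58.1 under R 4.3.3. Flagged spots (3.48% and 3.37%) and control spots were left out, no spot was saturated, and the 4 spots of a probe were averaged. Probes with most spots well above background in at least 1 channel were kept, and the brightest probe of a gene was used. Levels came from Aquantile normalisation of the channels after loess. A bound on a fold sets the bright level against the higher of the dim probe's own level and the lowest level well above background in that channel, and levels across channels are open to dye bias. Probes were matched to gene names through RefSeq accessions (28328 of 39429 probes, 71.8%), which changed 1359 names. Positions of probes are in mm9 as deposited, and no exon annotation for mm9 was used. All 22316 genes were fitted with lmFit and eBayes, with 1 residual and 4.34 prior degrees of freedom and Benjamini-Hochberg adjustment. P-values measure only the spread between these samples. Precision is limited by the number of arrays. The fit was checked on drawn data with known changes. Those data had the same SD for all genes, so the check does not cover genes of unequal spread. Figures used matplotlib 3.10.9.

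The genes, gene lists and rules were chosen with earlier results of these data known. The text names all 9 genes and, per list, the 2 highest and the lowest on array 2 among genes kept on both arrays, those past 1.5-fold on both arrays where there were at most 4, fixed receptors and markers, and the 3 nearest genes of Cxcl10, Cxcl9 and Ccl7. Elane, Ifnb1, Cd4, Nkg7, Lyz2, Cx3cr1 and Mrc1 were named after their values were seen, and 1 gene that the rule takes is not reported here. Alternatives were tried for background correction, normalisation, the filter on dim probes, spot averaging, flagged spots, the choice of probe, the variance model, both thresholds and the source of values, and each array was left out.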

Additional observations from a re-analysis of the deposited data

How the results depend on the processing

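Of 315 values of the 9 genes under other settings, 274 were counted as staying within the spread of spots or arrays. For mean log2 ratios that spread was the SD of the 2 arrays, which was wide because the genes were picked on it. Leaving 1 array out cannot move a mean past this SD, so the count says nothing on stability there. The Cxcl10 mean, 3.07 as reported, was 0.03 without replicate 2 and still counted as within. A total of 11 had the sign opposite to the reported value, 7 of them for reported values under 1.5-fold. The count of 7 genes at least 1.5-fold higher on array 2 was 7 in every setting run, the 2-fold threshold included. On array 1 the count of 0 higher genes became 1 with median centring in place of loess, where Cxcl14 was 0.80, and -0.96 on array 2. Cxcl14 on array 2 was also past 1.5-fold lower with spot medians (-0.63). On array 1 Ccl2 was -0.63 after scale normalisation and -0.17 with median centring, and Il6 was past 1.5-fold lower in 6 settings, at -1.96 to -0.60. The lowest, with the scanner's processed signals, compares with -0.53 as reported, and the cause was not tested. Cxcl9 on array 1, 0.03 as reported, ran from -0.21 to 0.10. The mean log2 ratio turned sign without replicate 2, with ranges over the arrays left out of -0.11 to 2.78 for Cxcl1, -0.56 to 2.50 for Ccl2, -0.10 to 3.02 for Ccl5, -1.21 to 2.54 for Ccl7 and -0.53 to 1.61 for Il6. The mean of Cxcl14 (-0.06) was 0.40 without replicate 2, and that of Cxcl12 (0.19) was -0.13 without replicate 1. The count of the 9 genes past 1.5-fold with 1 sign on both arrays, 0 as reported, was 1 to 7 when only 1 array was used. Over all genes that count was 488 on both arrays, 962 to 2678 with 1 array left out, 149 at 2-fold and 853 with the processed signals. The count of genes past the adjusted p, 0 as reported, was 36 at a threshold of 0.1, 97 with both channels above background, 141 with trend and robust eBayes, 23 with flagged spots kept, 114 with median centring, 35 without background subtraction and 119 with offset 0, and for none of these was the cause tested. The fit was already paired, because each ratio sets the 2 samples of 1 number against each other on 1 array. A further block would repeat the fit. The arrays limit the precision of every value, as there were 2 of them. NOGGIN 1 and control 1 were near background for Cxcl9 and Il6. In control 1 the raw signals of Cxcl1 (110 over a background of 65.0) and Ccl5 (121 over 62.5) were also low. Small ratios of these genes on array 1 are not resolved.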
